A study of Homo sapiens with 12 samples.

Results

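The SRSF and HNRNP splicing factor genes were followed through 12 RNA sequencing libraries of the human line TC-71, which comes from an Ewing sarcoma. Members are the entries of the deposited table with a symbol of the form SRSF or HNRNP plus a number or letters, and a mean normalized count of at least 10 over the 12 libraries. They number 34 of 14225 named entries at that minimum, 12 SRSF and 22 HNRNP. Members were chosen by symbol and by their mean normalized count, so levels are given as a description. Just inside the minimum lay the pseudogene HNRNPA1P33, with a mean of 13.7 normalized counts, and just outside it HNRNPCL1, with 6.54. The 3 other entries below it were HNRNPCL2, HNRNPKP3 and a second HNRNPUL1 entry that is listed at 0.

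All 4 groups are the same cell line, unedited per the labels, with 3 libraries each that the labels call biological replicates. In the first pair, cells received the solvent DMSO or the small molecule YK-4-279 for 16 hours, at 2 mM as the labels write the dose. In the second pair, cells were transfected with a scrambled control RNA or with RNA against DHX9 (siDHX9) and collected at 48 hours. The labels' protocols speak of siRNA and the series' design text of shRNA. YK-4-279 was developed against the binding of the fusion protein EWS-FLI1 to DHX9, an RNA helicase, and the design sets the drug beside lowered DHX9, each with its own control.

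SR proteins (SRSF genes) carry an RNA-binding domain and a tail rich in arginine and serine. They bind exon enhancers, draw the spliceosome to nearby splice sites, and are steered by kinases that phosphorylate the tail. The hnRNP proteins (HNRNP genes) coat nascent transcripts, often act as silencers of splicing, and also serve in export, translation and decay of mRNA. Genes of both families are known to limit their own levels by splicing in an exon that sends the transcript to nonsense-mediated decay (NMD).

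The gene annotation lists transcripts classed as NMD targets, which by itself does not show that a gene limits its own level. In GENCODE release 29, 12 of the 12 SRSF genes and 13 of the 23 HNRNP genes found there had at least 1 transcript annotated as an NMD target, against 35.6% of 19969 protein-coding genes. The 23 include the pseudogenes HNRNPA1P10, HNRNPA3P1 and HNRNPA1P33, which have no protein-coding transcript there. SRSF7 had 6 such transcripts, HNRNPDL had 4 and HNRNPU had 9. The deposited values sum the reads of a gene and do not separate these transcripts.

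Promoter sequences are shown for the 3 members that fell with YK-4-279 and for SRSF6, the SRSF member with the smallest adjusted p in the DHX9 comparison. They are the 250 bases before the annotated start, 5′ to 3′ on the gene's strand, from RefSeq's GRCh38.p14 tables. The first window listed was taken, and capitals mark matches, on either strand, to the motifs described after them. HNRNPDL lies at chr4:82430226-82430475 (minus strand), SRSF3 at chr6:36594112-36594361 (plus), SRSF10 at chr1:23980328-23980577 (minus) and SRSF6 at chr20:43457646-43457895 (plus).
HNRNPDL: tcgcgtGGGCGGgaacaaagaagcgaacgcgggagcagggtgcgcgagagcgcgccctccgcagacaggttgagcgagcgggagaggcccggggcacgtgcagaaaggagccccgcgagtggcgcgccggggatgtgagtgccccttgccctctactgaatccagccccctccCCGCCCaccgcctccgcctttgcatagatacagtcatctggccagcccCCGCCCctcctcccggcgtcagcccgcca
SRSF3: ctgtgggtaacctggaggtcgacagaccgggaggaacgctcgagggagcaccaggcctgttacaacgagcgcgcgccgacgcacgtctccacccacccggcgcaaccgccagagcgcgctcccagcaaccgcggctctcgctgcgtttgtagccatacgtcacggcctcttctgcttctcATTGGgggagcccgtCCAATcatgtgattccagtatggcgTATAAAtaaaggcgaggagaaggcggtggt
SRSF10: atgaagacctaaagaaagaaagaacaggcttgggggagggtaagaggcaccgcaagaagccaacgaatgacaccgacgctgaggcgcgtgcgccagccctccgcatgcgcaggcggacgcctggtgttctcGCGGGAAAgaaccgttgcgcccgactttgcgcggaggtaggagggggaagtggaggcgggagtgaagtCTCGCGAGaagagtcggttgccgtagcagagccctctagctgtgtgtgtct
SRSF6: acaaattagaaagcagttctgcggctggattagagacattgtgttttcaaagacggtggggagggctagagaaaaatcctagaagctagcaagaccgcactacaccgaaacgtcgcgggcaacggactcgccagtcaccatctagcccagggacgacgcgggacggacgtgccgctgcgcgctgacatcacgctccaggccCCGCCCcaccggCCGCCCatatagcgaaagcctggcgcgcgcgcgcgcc
The capitals are GGGCGG, the GC box, read as CCGCCC on the other strand, in HNRNPDL and SRSF6. In SRSF3 they are CCAAT, read as ATTGG on the other strand, and TATAAA, the TATA box. In SRSF10 they are CTCGCGAG, a palindrome known from promoters without a TATA box, and TTTNNCGC, found on the other strand.

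Altogether 8 motifs were searched on both strands of windows of 300 bases (250 before the start and 50 after). Such windows were found for 30 of the 35 genes named in the member entries, giving 14 SRSF and 30 HNRNP windows. Several genes have more than 1 window, and those can share bases. CCAAT was in 60% of the HNRNP windows (18 of 30), in 21.4% of the SRSF windows (3 of 14) and in 34.6% of all 35116 windows. GGGCGG was in 70% of HNRNP, 42.9% of SRSF and 45% of all windows. TTTNNCGC was in 7 of 30 HNRNP and 1 of 14 SRSF windows, against 6.89% of all. CTCGCGAG was in 2 SRSF windows, of SRSF10 and SRSF4, and in 3 HNRNP windows, of HNRNPH3, HNRNPK and HNRNPUL1, against 1.02% of all. TATAAA was in 3 SRSF and 3 HNRNP windows, against 11.5% of all. CCGGAAGT, the core that ETS factors bind, was in 2 SRSF windows and 1 HNRNP window, against 4.14% of all. GGAAGGAA, tandem GGAA, was in 3 SRSF windows, of SRSF1 and SRSF7, in 0 of 30 HNRNP windows and in 3.67% of all. TGACGTCA was in none of the 44 windows and in 1.85% of all. None of these matches is a measured binding site.

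Facts of the whole series bear on all values. Libraries held 38.6 M to 65.5 M reads. DHX9, which shares an entry with its neighbour NPL, stood at 30287.3, 33422 and 34357.3 normalized counts in scrambled and at 19342.2, 21178.3 and 21304.2 in siDHX9 libraries. That is a log2 fold change of -0.66 (limma adjusted p = 4.54e-05; exact permutation p = 0.1, two-sided, the smallest that 3 against 3 allow). The same entry had 36421.7, 34511 and 33239.1 in DMSO and 30612.7, 29419.9 and 29958.6 in YK-4-279 libraries. That drug change was not called (log2 -0.21, limma adjusted p = 0.0567). All 9 Ewing sarcoma markers listed were above the minimum. None of 4 endothelial markers was. Of 5 blood cell markers 1 was, CD14, and CD3E was at 0, and their summed count was highest under YK-4-279 (46.5 to 64.5), against DMSO (2.98 to 19.9), scrambled (8.98 to 16.2) and siDHX9 (3.66 to 21.7). Of 5 epithelial markers 3 were, with sums of 241 to 298 for DMSO, 348 to 422 for YK-4-279, 383 to 400.4 for scrambled and 334 to 392.3 for siDHX9. Of 5 fibroblast markers 4 were, with sums of 1883 to 2405 in the other 3 groups and 2501 to 2943 in siDHX9. One entry of ribosomal RNA held 5.19% of normalized counts in DMSO, 8.79% with YK-4-279, 4.09% in scrambled and 2.71% in siDHX9 libraries. The part of these marker and ribosomal RNA differences in the results was not tested. In such bulk samples fewer cells of a type and less RNA per cell cannot be told apart. Scrambled replicate 3 lay apart from replicates 1 and 2 in SRSF2, SRSF3, SRSF7, SRSF8, SRSF10 and SRSF12, but in SRSF6 replicate 1 lay apart and in SRSF11 replicate 2.

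Mean normalized counts of the members, not corrected for length, ran from 13.7 to 224138. The HNRNP entry with the highest mean was the one joining HNRNPA1 with its pseudogene HNRNPA1P10. HNRNPA1 encodes a classic silencer of exons. Its values were 233156, 225719 and 219172 in DMSO, 220754, 227585 and 225193 with YK-4-279, 216598, 218641 and 229139 in scrambled, and 221178, 215631 and 236892 in siDHX9 libraries. The 4 groups overlapped. At the other end, HNRNPA1P33 had 26.11, 10.92 and 15.41 in DMSO, 12.97, 17.09 and 15.11 with YK-4-279, 15.33, 5.55 and 13.97 in scrambled, and 12.41, 16.47 and 3.24 in siDHX9 libraries, again overlapping. The SRSF entry with the lowest mean was SRSF12, which encodes an SR-related protein that opposes SR proteins in splicing. Its values were 1017.64, 929.48 and 910.4 in DMSO, 851.73, 834.51 and 838.17 with YK-4-279, 911.57, 900.7 and 1110.3 in scrambled, and 880.41, 861.7 and 799.77 in siDHX9 libraries.

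Levels between genes were compared per kilobase of annotated exons, for entries that name 1 gene. This leaves out the joined HNRNPA1 entry, which had the highest mean of all members before any correction for length. Lengths take in the exons of all annotated transcripts, so genes with many annotated exons can come out lower. Among the entries so compared, SRSF2, an SR protein of the nuclear speckles, came first with 12945 normalized counts per kilobase. HNRNPK, which binds C-rich RNA, had 8840, HNRNPA2B1 8079 and SRSF7 8036 as means over the 12 libraries. The order of these 3 changed with the group: in DMSO, SRSF7 had 9402, HNRNPK 8714 and HNRNPA2B1 8054. The lowest after the pseudogenes were HNRNPF, which binds runs of G, with 105, SRSF4 with 114, SRSF11 with 148 and SRSF12 with 199. The difference between HNRNPF and SRSF4 is smaller than the differences between their group means.

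With YK-4-279, 3 members fell and 1 rose: HNRNPDL, SRSF10 and SRSF3 were lower and HNRNPL was higher. These 4 are 11.8% of the 34 members, against 13.8% of all genes tested, so the share was near the background. By direction, 3 of 34 lower compares with 6.49% of all genes and 1 of 34 higher with 7.33%. The 2 groups of libraries did not overlap for 16 of 34 members against 43.5% of all genes, with 10 below DMSO (20.4% of all genes) and 6 above (23.2%). The median log2 change was -0.18 over the SRSF members, -0.02 over the HNRNP members and 0.02 over all genes. Of the 12 SRSF members 2 fell, and of the 22 HNRNP members 1 rose and 1 fell.

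HNRNPDL, a close relative of the AU-rich element binding protein HNRNPD, had the largest log2 change of the 34 members. The gene (hg19 chromosome 4, 83343718 to 83351378) had 24293.5, 22336.3 and 22771.5 normalized counts in DMSO and 15500.9, 15718.9 and 16091.5 with YK-4-279. Scrambled libraries had 23410.4, 24440.9 and 25306.4, and siDHX9 libraries 22615.5, 23926.2 and 24366.1. The 3 drug libraries lay below the other 9, which overlapped with each other. HNRNPDL fell by 31.8% with the drug (log2 -0.55, SE 0.062, limma adjusted p = 0.000112). It was called under all 13 other settings and with each of the 12 libraries left out in turn.

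SRSF10, an SR protein that represses splicing once its tail is dephosphorylated, fell by 27.7%. The gene (hg19 chromosome 1, 24290837 to 24307417) had 9225.9, 8974.06 and 9249.06 in DMSO and 6744.68, 6257.81 and 6867.58 with YK-4-279. The 2 groups were well apart (log2 -0.47, SE 0.108, limma adjusted p = 0.0124). Without YK-4-279 replicate 2 the adjusted p was 0.062.

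SRSF3, the smallest SR protein, also known for mRNA export and polyadenylation site choice, fell by 22.2%. The gene (hg19 chromosome 6, 36562090 to 36572244) had 54396, 52709.3 and 52916 in DMSO and 42529.3, 40391.2 and 41589.3 with YK-4-279. Scrambled libraries had 32627.1, 33435.9 and 42551.4, and siDHX9 libraries 37319.8, 34831.9 and 32832.9. Drug and DMSO libraries did not overlap (log2 -0.36, SE 0.0895, limma adjusted p = 0.0176). The call was lost without DMSO replicate 1 (0.0691), 2 (0.0548) or 3 (0.051), without YK-4-279 replicate 2 (0.0743) or 3 (0.0549), and without a mean-variance trend (0.0508).

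HNRNPL, which binds CA-rich RNA, rose by 21.5%. The gene (hg19 chromosome 19, 39327029 to 39342987) had 14208.2, 13916.4 and 14533 in DMSO and 16680.1, 18308.9 and 16874.3 with YK-4-279. All 3 drug libraries were higher (log2 0.28, SE 0.0875, limma adjusted p = 0.0474). The call held without scrambled replicate 2 or siDHX9 replicate 2 or 3. Leaving out any other library gave 0.0505 to 0.177, TMM scaling 0.0532, edgeR 0.0518, no minimum 0.0655 and no mean-variance trend 0.0982.

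**Figure D1:**
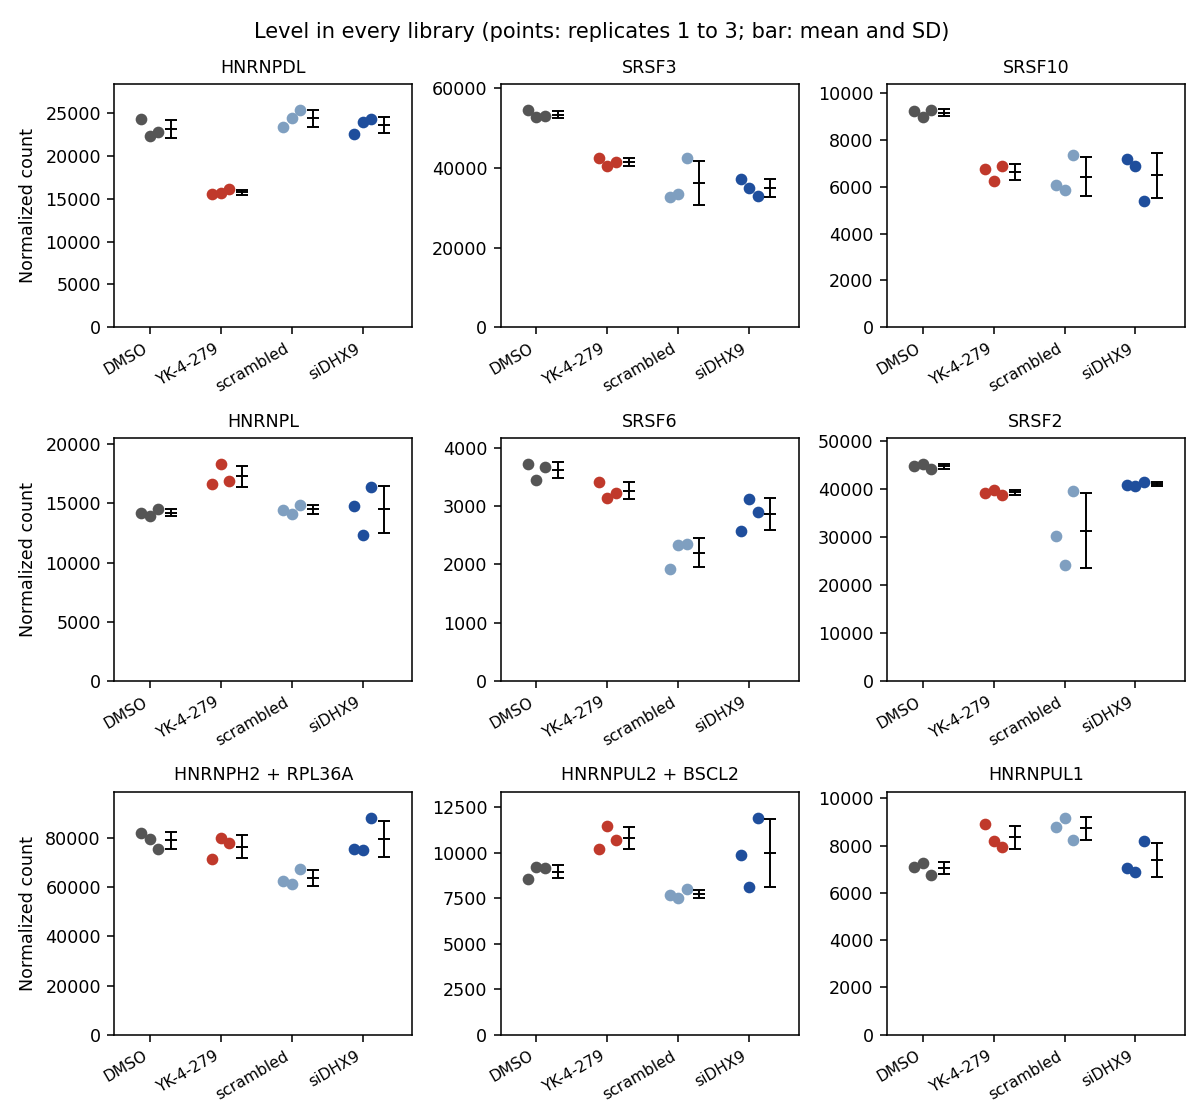
Normalized counts (axes from 0) of 9 members in every library, with the mean and SD (n = 3) of each group. The 3 YK-4-279 libraries of HNRNPDL lie between 15500.9 and 16091.5, below the other 9 libraries, and scrambled replicate 3 lies above replicates 1 and 2 in SRSF2, SRSF3 and SRSF10.

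Close to the threshold with YK-4-279 were 2 SR proteins. SRSF7, which carries a zinc knuckle, had a log2 change of -0.21 (limma adjusted p = 0.0546), with 39043.3, 37152.4 and 37901.5 normalized counts in DMSO and 32341, 33230.5 and 33224.7 with the drug. SRSF1, the prototype of the family, had -0.30 (0.0569), with 10526.3, 9710.89 and 9477.63 in DMSO and 8785.38, 7528.67 and 7911.27 with the drug. Neither pair of groups overlapped. Both genes passed in edgeR (adjusted p = 0.0272 for SRSF7 and 0.0445 for SRSF1), in DESeq2 (0.0236 and 0.0286) and with the 6 drug and DMSO libraries alone (0.00216 and 0.00361). On the higher side HNRNPUL1 had 0.24 (0.0592) and HNRNPM, which binds GU-rich RNA, had 0.20 (0.063). HNRNPUL2, an entry joined with BSCL2, had 0.27 (0.111). These 5 joined HNRNPDL, SRSF3, SRSF10 and HNRNPL when siDHX9 replicate 2 or 3 was left out, which raised the count from 4 to 9. It was 10 with the 6 libraries alone (4 higher, 6 lower). Leaving out DMSO replicate 1, 2 or 3 or YK-4-279 replicate 3 gave 2, and leaving out YK-4-279 replicate 2 gave 1. The matching counts over all genes are not given here, so these moves cannot be read as particular to the members.

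The other SRSF members had smaller or less certain values with YK-4-279 in the main fit. SRSF2 had a log2 change of -0.19 (95% interval -0.45 to 0.07, limma adjusted p = 0.329). Its drug libraries, 38765.5 to 39852.3, lay below its DMSO libraries, 44127.9 to 45147.4. With those 6 libraries alone SRSF2 was called (limma adjusted p = 0.00299). The main interval also takes in the spread of scrambled libraries, which ran from 24183.8 to 39556.7. The log2 change was -0.18 for SRSF12, -0.17 for SRSF11 and SRSF4, and -0.15 for SRSF6. It was -0.01 for SRSF5 (-0.16 to 0.14), 0.02 for SRSF8, a retrocopy related to SRSF2, and 0.07 for SRSF9 (-0.10 to 0.25). Thus 10 of the 12 SRSF estimates were below 0, against 6712 of 14225 over all genes.

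The other HNRNP members were mostly nearer to 0. The abundant HNRNPA1 entry had -0.01 (-0.14 to 0.12), HNRNPA2B1 had 0.00 (-0.16 to 0.15) and HNRNPU, a nuclear scaffold protein, had -0.03 (-0.17 to 0.12). HNRNPC, which binds runs of U, had 0.09, HNRNPD 0.02, HNRNPK 0.05 and HNRNPAB -0.01. The G-tract binders HNRNPH1, HNRNPH3 and HNRNPF had -0.06, 0.05 and -0.25 (-0.52 to 0.02), and the entry joining HNRNPH2 with RPL36A had -0.05. HNRNPLL had -0.04, HNRNPR -0.08, HNRNPA3 -0.12 and HNRNPA1L2 -0.18. The pseudogenes HNRNPA3P1 and HNRNPA1P33, with few reads, had -0.45 (-1.30 to 0.40) and -0.13 (-1.33 to 1.08).

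**Figure D2:**
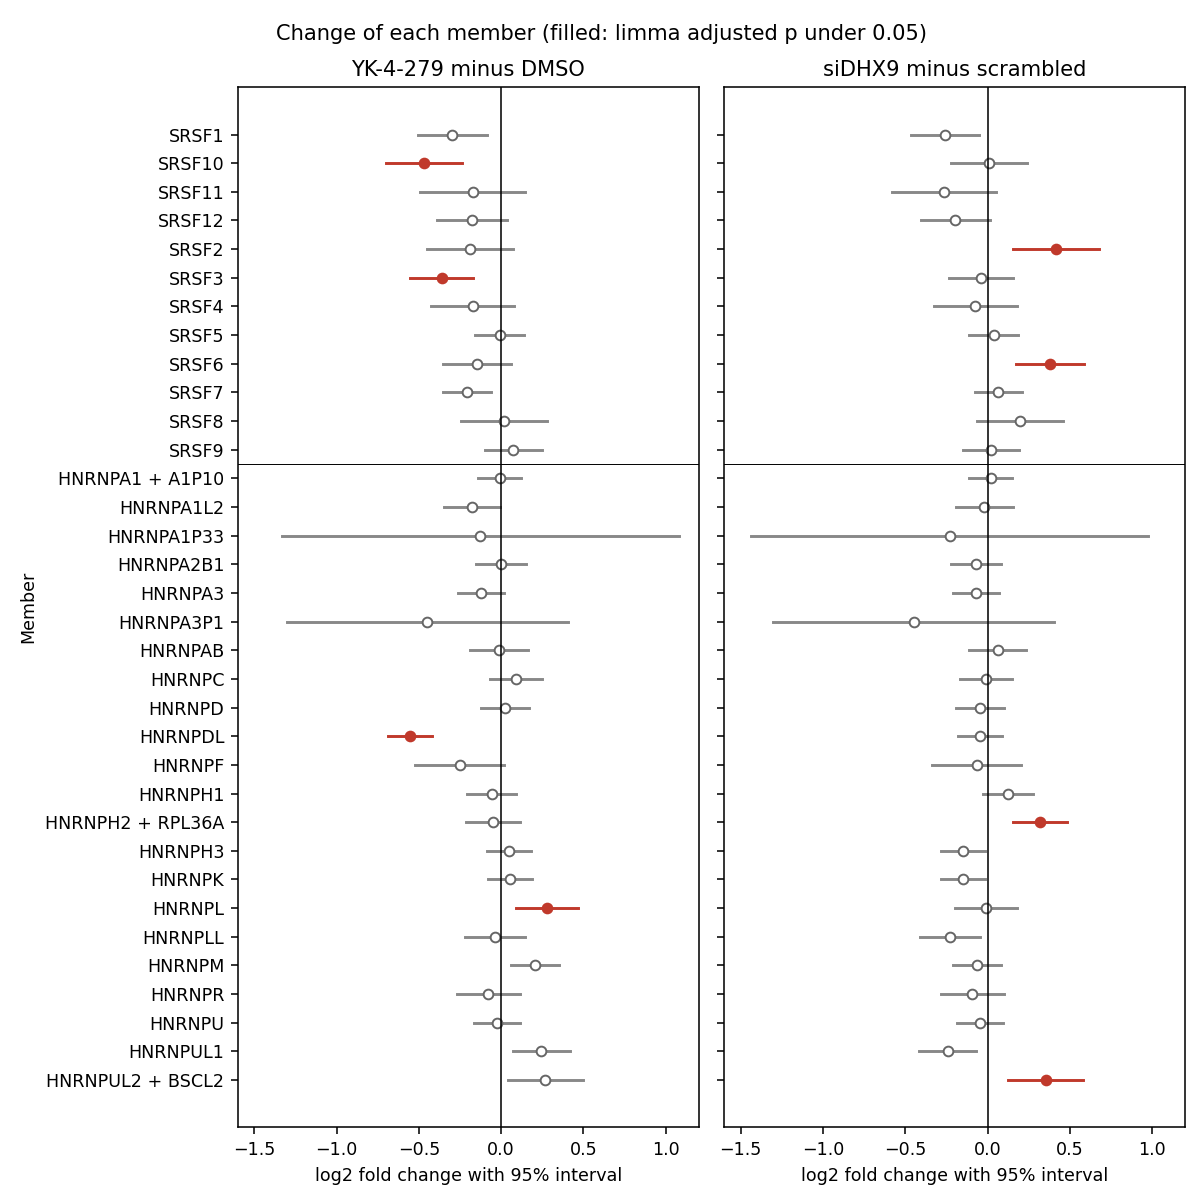
Log2 fold change of each of the 34 members with its 95% interval, for YK-4-279 minus DMSO (left) and siDHX9 minus scrambled (right), with limma calls filled. On the left 10 of the 12 SRSF points lie below 0, against 6712 of 14225 over all genes. HNRNPDL is the lowest called member there at -0.55, and on the right the 4 called members lie above 0.

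With siDHX9, 4 members rose against scrambled: the joined HNRNPH2 entry, SRSF6, SRSF2 and the joined HNRNPUL2 entry. They are 11.8% of 34 members, against 16.7% of all genes. By direction, 4 of 34 higher compares with 8.75%, and no member was called lower by limma, against 7.97% of all genes. At an unadjusted limma p under 0.05, 4 members were higher and 5 lower, against 4737 of all 14225 genes in either direction. edgeR and DESeq2 each called 4 members higher and 1 lower, and their counts over all genes are not given here. The groups did not overlap for 9 members, against 29.3% of all genes, with 4 above scrambled (14.9%) and 5 below (14.4%). The median log2 change was 0.01 over SRSF members, -0.06 over HNRNP members and 0.00 over all genes.

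The entry joining HNRNPH2 with the ribosomal protein gene RPL36A (hg19 chromosome X, 100645878 to 100669128) had 62605.1, 61254 and 67297.1 normalized counts in scrambled and 75429.9, 75089.2 and 88159.9 in siDHX9 libraries. It rose by 24.6% (log2 0.32, SE 0.0772, limma adjusted p = 0.0152). How much of the entry is HNRNPH2 cannot be read from the values. DMSO libraries had 82207.2, 79716.9 and 75338.2, within the range of siDHX9 and above scrambled. Without scrambled replicate 1 or 2 the adjusted p was 0.0535 or 0.053, and with quantile normalization the log2 change was 0.13 (adjusted p = 0.091).

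SRSF6, the SR protein also called SRp55, rose by 30.2%. The gene (hg19 chromosome 20, 42086504 to 42092242) had 1916.91, 2332.2 and 2351.27 in scrambled and 2564.68, 3120.22 and 2898.64 in siDHX9 libraries. All 3 siDHX9 libraries were above scrambled and below DMSO, which had 3713.94, 3451.79 and 3665.98 (log2 0.38 against scrambled, SE 0.0959, limma adjusted p = 0.018). YK-4-279 libraries had 3416.66, 3130.91 and 3224.75. Without scrambled replicate 1 the adjusted p was 0.075.

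SRSF2 rose by 33.4% on average, with scattered controls. The gene (hg19 chromosome 17, 74730199 to 74733493) had 30180, 24183.8 and 39556.7 in scrambled and 40863.1, 40563.7 and 41379.6 in siDHX9 libraries. Scrambled replicate 3 lay just below siDHX9 and replicates 1 and 2 far below (log2 0.42, SE 0.122, limma adjusted p = 0.0341). DMSO had 44874.6, 45147.4 and 44127.9, and YK-4-279 39172.1, 39852.3 and 38765.5. Against scrambled replicate 3 alone the log2 change was 0.05, with 1 control library. The call was also lost without scrambled replicate 1 (0.0926) or 2 (0.105), siDHX9 replicate 1 (0.0829) or 3 (0.0817) or YK-4-279 replicate 3 (0.0505), without a minimum (0.056) and without a mean-variance trend (0.0799). SRSF2 overlaps MFSD11, at a mean of 1651 normalized counts.

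The entry joining HNRNPUL2 with BSCL2, the seipin gene (hg19 chromosome 11, 62457734 to 62494944), had 7677.54, 7518.15 and 7988.54 in scrambled and 9879.03, 8144.95 and 11911.2 in siDHX9 libraries. It rose by 27.6% (log2 0.35, SE 0.107, limma adjusted p = 0.039), with siDHX9 replicate 2 close to the controls. The call held without YK-4-279 replicate 2 or siDHX9 replicate 2, and leaving out any other library gave 0.0505 to 0.128, no minimum 0.0558 and no trend 0.0848.

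None of these 4 calls held with the scrambled and siDHX9 libraries alone, where limma called 0 of 34 members and 5 had an unadjusted p under 0.05. Replicates varied most in siDHX9, where the median SD of the members was 0.13 on the log2 scale, against 0.063 in DMSO, 0.040 with YK-4-279 and 0.075 in scrambled libraries. Leaving out scrambled replicate 1 also gave 0 calls (10 at an unadjusted p under 0.05), and leaving out scrambled replicate 2 gave 1. Leaving out siDHX9 replicate 1 or YK-4-279 replicate 3 gave 2. Counts over all genes under these settings, adjusted or not, are not given here, so these moves cannot be read as particular to the members.

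HNRNPDL, the member with the smallest adjusted p under the drug, had a log2 change of -0.05 with siDHX9 (95% interval -0.18 to 0.09). SRSF3 had -0.04 (-0.23 to 0.15), SRSF10 0.01 (-0.22 to 0.24) and HNRNPL -0.01 (-0.20 to 0.18). HNRNPUL1 had -0.24 (limma adjusted p = 0.053), SRSF1 -0.26 (0.082) and HNRNPLL, a regulator of CD45 splicing, -0.23 (0.0813). HNRNPH3 and HNRNPK each had -0.15 (0.115 and 0.108). SRSF11 had -0.26 (-0.58 to 0.05), SRSF12 -0.20 (-0.41 to 0.02) and SRSF8 0.20 (-0.06 to 0.46). The remaining SRSF members, SRSF4, SRSF5, SRSF7 and SRSF9, lay from -0.08 to 0.07. Apart from HNRNPH1 at 0.12 and the pseudogenes HNRNPA3P1 at -0.45 and HNRNPA1P33 at -0.23, the remaining HNRNP members lay from -0.09 to 0.06.

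The change under the drug differed from that under the knockdown for 5 members (14.7% of 34, against 9.69% of all genes): 1 difference was above 0 (4.4% of all genes) and 4 were below (5.29%). HNRNPDL had a difference of -0.51 (SE 0.0879, limma adjusted p = 0.00355), called under every alternative run. HNRNPUL1 had 0.49 (SE 0.114, 0.0171): its values were 7115.27, 7265.05 and 6774.69 in DMSO, 8907.52, 8217.39 and 7945.52 with YK-4-279, 8796.49, 9174.36 and 8228.96 in scrambled, and 7057.78, 6905.46 and 8218.21 in siDHX9 libraries. Drug libraries were thus above their controls and siDHX9 libraries below theirs. SRSF6 had a difference of -0.53 (0.0265), SRSF2 -0.60 (0.0419) and the joined HNRNPH2 entry -0.37 (0.0494). HNRNPUL1 lost this call without DMSO replicate 3 (0.0515) or YK-4-279 replicate 1 (0.0542). SRSF6 lost it without DMSO replicate 1 (0.0629) or 3 (0.0641), YK-4-279 replicate 2 (0.0646) or 3 (0.0636), or scrambled replicate 1 (0.0599), or without a trend (0.0552). With 1 library left out, SRSF2 kept it for scrambled replicate 3 and siDHX9 replicate 2, and the HNRNPH2 entry for scrambled replicate 3 and siDHX9 replicates 2 and 3. SRSF2 also lost it without a minimum (0.0676) or a trend (0.0949). The HNRNPH2 entry also lost it with an added value of 10 (0.0508), without a minimum (0.103) or a trend (0.105), and with unnamed entries included (0.0512). For SRSF10 the difference was -0.48 (0.0634), for SRSF3 -0.32 (0.124) and for HNRNPL 0.29 (0.154), none of them called. Leaving out any 1 library other than siDHX9 replicate 2 moved the count of 5 to between 1 and 8. The controls of the drug and the knockdown differ in transfection and hours of culture. Scrambled itself was called against DMSO for SRSF6 (log2 -0.72), SRSF2 (-0.54), the HNRNPH2 entry (-0.31) and HNRNPUL1 (0.31). Set against DMSO, siDHX9 gave -0.34, -0.13, 0.005 and 0.06 in the same order. The part of the controls in the differences of effects was not tested.

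**Figure D3:**
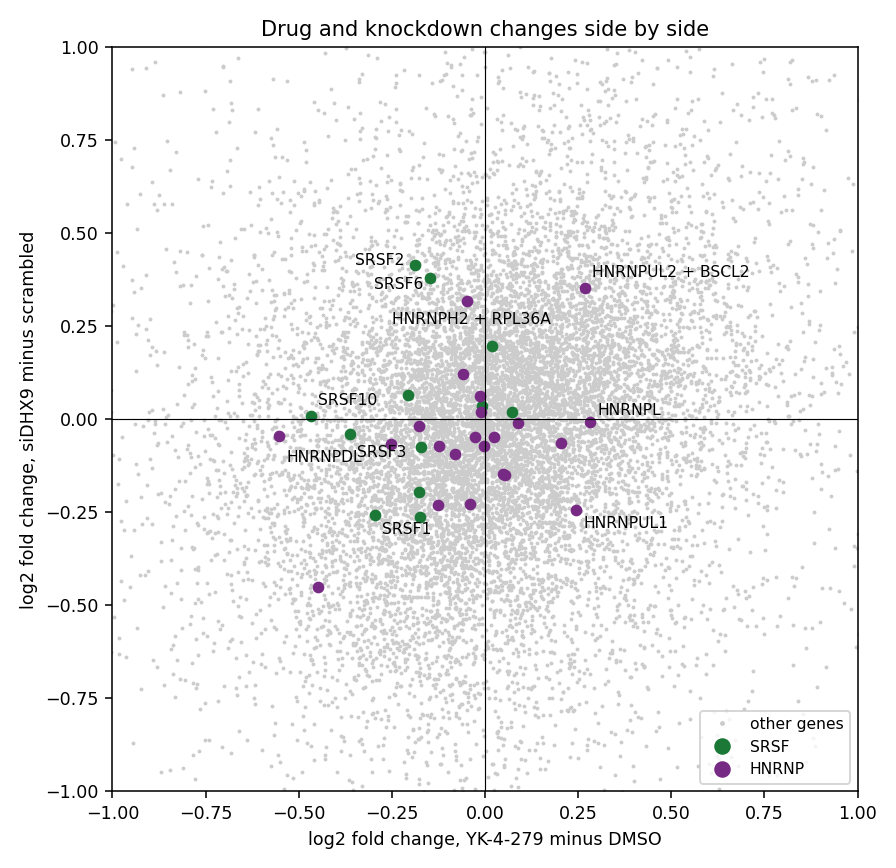
Log2 fold change with YK-4-279 (x axis) against that with siDHX9 (y axis) for SRSF members (green), HNRNP members (purple) and other genes tested (grey, axes end at -1 and 1). HNRNPDL, SRSF3 and SRSF10 lie left of 0 and near 0 on the y axis, and SRSF2 and SRSF6 lie high on the y axis at -0.19 and -0.15 on the x axis.

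The transfection control itself differed from DMSO in the SRSF genes. Of 34 members 2 rose and 7 fell in scrambled against DMSO (26.5%, against 18.9% of all genes; higher 9.7% and lower 9.22% of all genes). Of the 12 SRSF members 5 fell: SRSF6 by 0.72 on the log2 scale (limma adjusted p = 0.000336), SRSF3 by 0.57 (0.00104), SRSF2 by 0.54 (0.00832), SRSF10 by 0.52 (0.00563) and SRSF7 by 0.40. HNRNPH1 fell by 0.41 and the joined HNRNPH2 entry by 0.31, while HNRNPLL rose by 0.39 and HNRNPUL1 by 0.31. The groups did not overlap for 12 members, against 40.8% of all genes, with 10 below DMSO (18.8%) and 2 above (22%). Transfection, scrambled RNA and hours of culture differ together here and cannot be told apart. This comparison shares the scrambled libraries with the knockdown comparison and the DMSO libraries with the drug comparison.

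With scrambled replicates 1 and 2 both left out, the scrambled group is 1 library, whose spread the fit takes to be that of the other groups. SRSF6 alone was then called. The log2 change was smaller for SRSF2 (-0.18) and SRSF3 (-0.33) and about as large for HNRNPLL (0.45) and HNRNPH1 (-0.37), which lost their calls too. Single libraries mattered for 2 members. The HNRNPH2 entry lost its call without DMSO replicate 1 (0.0563) or 2 (0.0529) or scrambled replicate 1 (0.0505) or 2 (0.0543), and HNRNPUL1 without DMSO replicate 3 (0.077) or scrambled replicate 1 (0.0568) or 2 (0.0673).

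**Figure D4:**
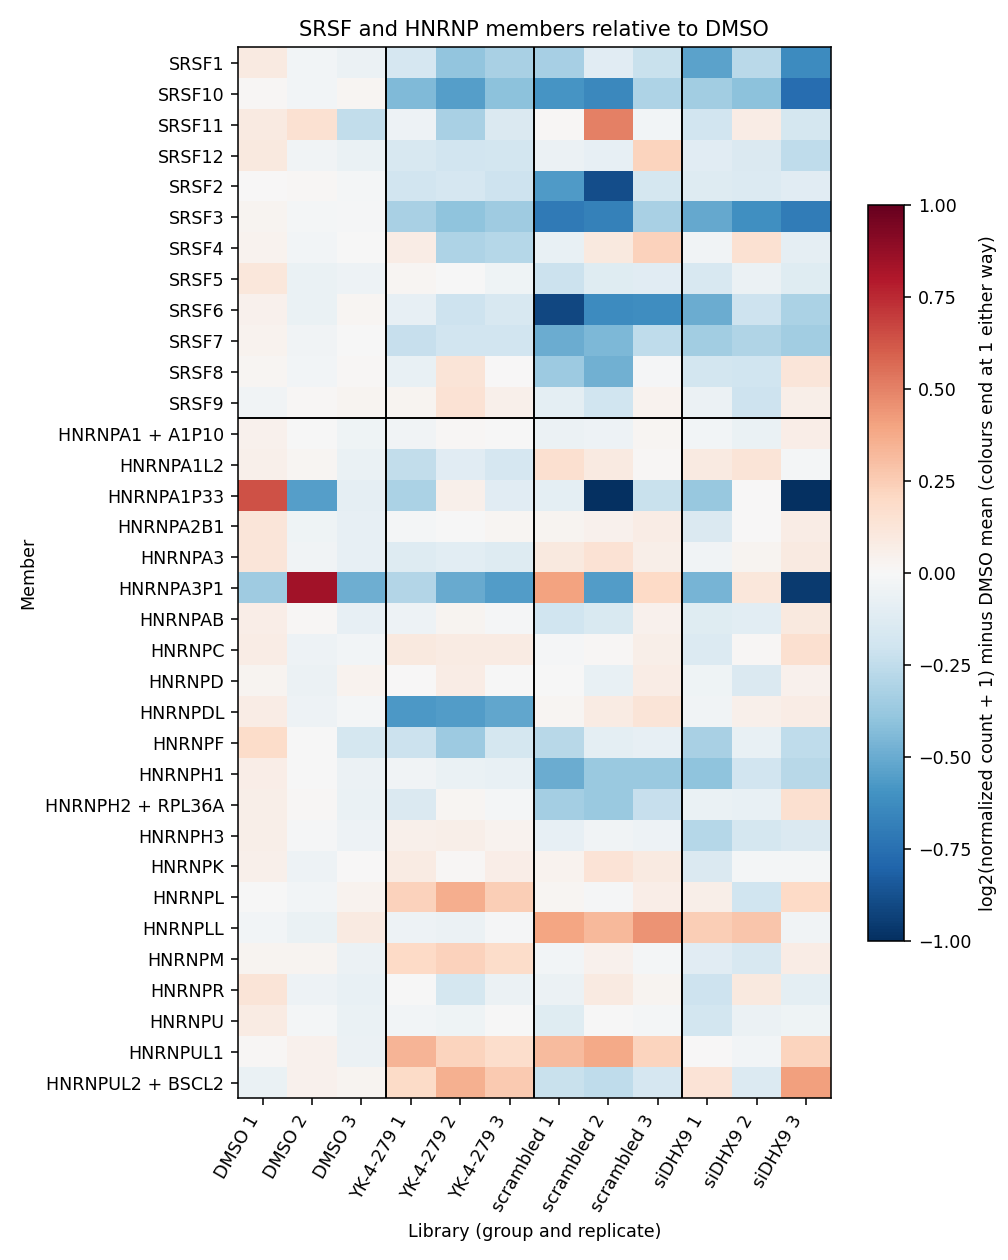
Log2 normalized count of the 34 members (rows) in the 12 libraries (columns) relative to the DMSO mean, blue lower and red higher, with colours ending 1 log2 unit either way. SRSF1, SRSF2, SRSF3, SRSF6, SRSF7 and SRSF10 are on the blue side in the 9 libraries outside DMSO, some only slightly. Some HNRNP members are too. HNRNPDL is blue in the 3 YK-4-279 libraries.

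Relative to the DMSO mean, SRSF3 stood at 77.8% with YK-4-279, 67.9% in scrambled and 65.6% in siDHX9 libraries. SRSF10 stood at 72.4, 70.3 and 70.9%, and SRSF7 at 86.6, 76 and 79.3%. HNRNPDL stood at 68.2, 105 and 102%. HNRNPDL was thus below DMSO in the drug group alone. Means below DMSO in each of the other 3 groups were found for 7 of 12 SRSF members (SRSF1, SRSF2, SRSF3, SRSF5, SRSF6, SRSF7 and SRSF10) and 7 of 22 HNRNP members, at any size of difference. The 3 comparisons share the same DMSO libraries, and the share over all genes was not counted.

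Summed over the 12 SRSF members, normalized counts were 188465 ± 2767 in DMSO, 161976 ± 871 with YK-4-279, 141544 ± 17903 in scrambled and 150743 ± 1987 in siDHX9 libraries (SD, n = 3). Scrambled replicates 1 and 2 had 132828 and 129669, and replicate 3 had 162136. Summed over the HNRNP entries that name 1 gene, the 4 means ran from 395663 ± 22116 in siDHX9 to 412363 ± 8572 in scrambled libraries, and the groups overlapped. These sums weigh abundant genes most and were not tested.

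**Figure D5:**
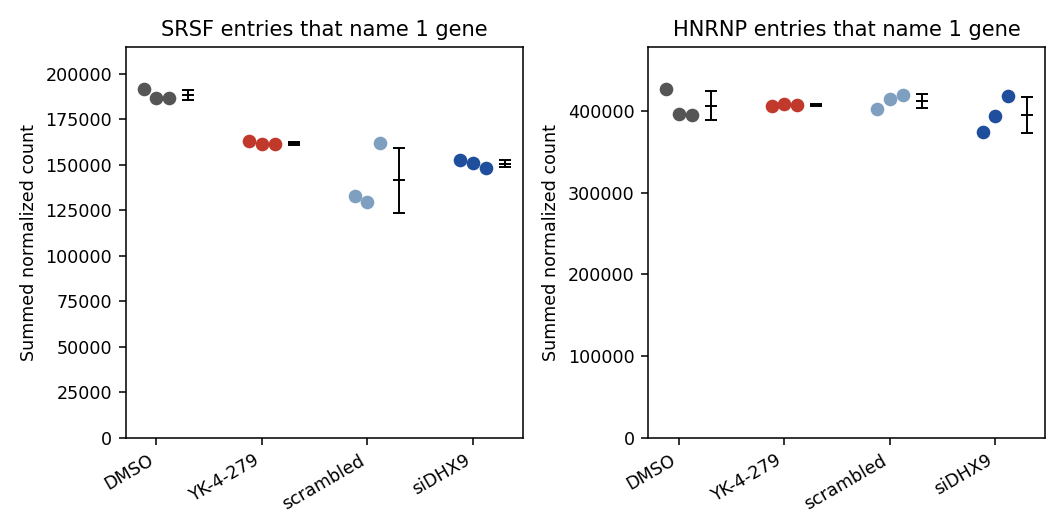
Summed normalized counts (axes from 0) of the SRSF members (left) and of the HNRNP entries that name 1 gene (right) in each library, with mean and SD of each group (n = 3). The 3 DMSO libraries are the highest for SRSF, at 186795 to 191659, and the groups overlap for HNRNP.

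Genes that act with the members were counted from lists. Of 10 genes for the kinases and the importer of SR proteins, 1 fell with YK-4-279 (6.49% of all genes did): CLK2, a kinase of the SR tail (log2 -0.41, SE 0.076, limma adjusted p = 0.00369). With siDHX9, 1 fell (7.97% of all genes): TNPO3, the importer (-0.36, SE 0.11, 0.0409). Group means of TNPO3 were 2711 in scrambled, 2113 in siDHX9 and 2181 in DMSO libraries. The list medians were -0.07 with the drug and -0.05 with siDHX9.

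Of 22 SR-related proteins 2 rose in each comparison, near the 7.33% of all genes with the drug and 8.75% with siDHX9 (list medians -0.13 and -0.09). SCAF1 rose with the drug (0.50, limma adjusted p = 0.0106). ACIN1, a part of the exon junction machinery, rose with siDHX9 (0.30, 0.0167), as did LUC7L, a U1 snRNP partner (0.29, 0.0185). Group means of ACIN1 were 13879 in scrambled, 17123 in siDHX9 and 16824 in DMSO libraries, and those of LUC7L 5447, 6684 and 5910. Of 26 hnRNP-like proteins under other symbols 5 rose with the drug (7.33% of all genes did), among them KHSRP, a KH-domain protein of mRNA decay (0.44, 0.00183), and SFPQ, a paraspeckle protein (0.43, 0.00194). With siDHX9 1 rose and 4 fell (8.75% and 7.97% of all genes), KHDRBS1, known as SAM68, among the latter (-0.31, 0.00514). KHDRBS1 had group means of 7148 in scrambled, 5766 in siDHX9 and 5985 in DMSO libraries.

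Of 44 core spliceosome genes 7 rose with YK-4-279, against 7.33% of all genes, and the list median was 0.01. The branch point binder SF1 had 0.35 (limma adjusted p = 0.00905), the U5-associated PRPF6 0.45 (0.00978) and the U1 protein SNRPA 0.43 (0.0104). With siDHX9 1 rose and 2 fell, against 8.75% and 7.97%. Of 16 genes of NMD and the exon junction complex, only UPF3B was called with the drug, and it fell (-0.35, 0.0187; 6.49% of all genes fell). With siDHX9 1 of the 16 rose and 1 fell, against 8.75% and 7.97% of all genes. RBM8A, a core of that complex, rose (0.49, 0.00144), and SMG1, a gene with near-identical copies whose 2 groups overlapped, fell by 49.9% (0.048). RBM8A had a log2 change of -0.64 in scrambled against DMSO (limma adjusted p = 0.000216). Its group means were 12048 in scrambled, 16950 in siDHX9 and 18790 in DMSO libraries.

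Of 14 tissue-restricted splicing regulators 1 rose with the drug (7.33% of all genes did). With siDHX9 2 rose and 1 fell (8.75% and 7.97% of all genes). The list medians were 0.14 with the drug and 0.04 with siDHX9. CELF3 rose in both comparisons (1.10 with the drug, limma adjusted p = 0.0475, and 2.16 with siDHX9, 0.00129). Its level was low: 22.38, 25.82 and 38.52 normalized counts in DMSO, 74.58, 50.27 and 62.46 with YK-4-279, 10.82, 22.19 and 21.95 in scrambled, and 64.14, 68.61 and 123.21 in siDHX9 libraries. The entry joining PARP6, CELF6 and HEXA rose with siDHX9 (0.24, 0.0228), with group means of 7427 in scrambled, 8766 in siDHX9 and 8615 in DMSO libraries. MBNL1 fell by 50.03% (0.0384) at low and scattered levels. It had 112.71, 223.79 and 140.66 in scrambled and 75.52, 110.68 and 51.88 in siDHX9 libraries.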

How the data were processed

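RNA from 4 groups of 3 TC-71 libraries was sequenced. Per the file headers, the deposited values are counts divided by DESeq size factors, used here as a normalized signal. The submitters' processing notes name FastQC, Picard, SAMtools, STAR 2.4.0, DESeq and hg19. The sources used here do not say if counting used strand, and 8 members overlap another named entry. The 3 joined entries were kept whole. Each column is made of multiples of a smallest step, and 100% of values up to 1000 reads came out whole to within 0.1. In 4 columns the step is so near 1 that whole reads cannot be told from rounding. Such recovered reads gave the depth and fed edgeR 4.0.16 and DESeq2 1.42.0 as alternatives. Every pair of replicates differed beyond counting noise (chi-square per degree of freedom 6.87 to 91.4).

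For the main test, log2(value + 1) of 14225 named entries with a mean of at least 10 was fitted with limma 3.58.1 under R 4.3.3. The fit had 4 group means, a mean-variance trend, and two-sided p-values with Benjamini-Hochberg adjustment over all 14225. Each gene had a single estimate of spread, shared by the 4 groups. A call is an adjusted p under 0.05, and fold changes on this scale understate those of low entries. Libraries without molecular identifiers bound counting error only. The fit was also run on simulated data with the same dispersion for all genes and groups. Such data cannot show how the fit does where replicates vary more in some groups than in others. Other settings covered the added value, the minimum, scaling, the libraries used, the trend and a replicate block.

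The members, gene lists and alternatives were chosen with earlier results of these data known. Values per library are given for up to 4 members per direction with the smallest adjusted p among those called in each main comparison, the 3 of the difference, and the highest and lowest member by mean of each family. From each list up to 3 called genes were named by adjusted p. Values printed for SRSF1 and SRSF7 fall outside that rule and were chosen after they were seen. Exonic lengths and transcript classes are from GENCODE release 29, and promoters from RefSeq, both GRCh38, joined by symbol only.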

Additional observations from a re-analysis of the deposited data

How the results depend on the processing

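Counts of called members moved with the setting, and the cause was not tested. Counts over all genes under these settings are not given here. A shift in calls over all genes thus cannot be told from one of the members. In the drug comparison (4 called) the count was 10 with the 6 libraries alone, 2 without a mean-variance trend, 7 in DESeq2, and 1 to 9 with 1 library left out. In the DHX9 comparison (4 called) it was 2 without a minimum, 0 with the 6 libraries alone, 2 without a trend, and 0 to 6 with 1 library left out. For the difference of effects (5 called) it was 3 without a minimum, 2 without a trend, and 1 to 8 with 1 library left out. Leaving out scrambled replicates 1 and 2 together, a setting chosen after seeing the data that leaves 1 scrambled library and takes its spread from the other groups, gave 0 for DHX9 (4 at an unadjusted p under 0.05), 1 for scrambled minus DMSO (9 called, and 7 to 10 with 1 library left out) and 1 for the difference. The DHX9 level itself ran from -0.72 to -0.62 with 1 library left out. Over 3358 values of single members under the alternatives, 106 lost a call, 53 gained one, and 138 changed sign where neither fit called the member. Over all pairs of groups, correlations of same-numbered deviations ran from -0.25 to 0.12 and of different-numbered ones from -0.19 to 0.26. Between scrambled and siDHX9 libraries the same-numbered values were 0.047, 0.060 and 0.078, and the different-numbered ones ran from -0.094 to 0.041. These values do not settle whether replicate numbers pair the libraries. With the replicate block 3 members were called for the drug, 4 for DHX9, 9 for scrambled minus DMSO and 4 for the difference. HNRNPL (adjusted p = 0.0599, drug) and the HNRNPH2 entry (0.0627, difference) were the members that lost a call under the block. With 3 libraries a group a missed call does not show that a member was unchanged. Each interval uses a spread shared by the 4 groups. The median SD of the members was 0.13 on the log2 scale in siDHX9 and 0.040 in YK-4-279 libraries. Intervals can thus be too narrow for the DHX9 comparison and too wide for the drug comparison.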
